A study of Mus musculus with 9 samples.

Results

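Among normal mouse livers, 515 circRNA probes differed strongly from one liver to another. The array carries 14236 circRNA probes, of which 11892 were well above background in each of the 3 livers of the normal (N) group. The 515 probes were chosen by the N values alone, as those whose highest and lowest log2 signal on N 1, N 2 and N 3 lay at least 1.5 apart. They make up 4.33% of the probes well above background in this group. Levels are the log2 of the background-corrected spot signal after quantile normalization over the 9 arrays, so a difference of 1 is a 2-fold difference in signal. The files name each circRNA probe by a number and pair none with a host gene, so the probes are described by number, and no probe sequence is shown. Host genes, genome positions and probe sequences were not analysed here.

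CircRNAs are closed loops that form when a splice donor joins an upstream splice acceptor of the same transcript. With no free ends they resist exonucleases such as RNase R and decay slowly, so they can build up in cells that rarely divide, such as hepatocytes. Some bind miRNAs or proteins, and the role of most is not known.

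The RNA came from frozen livers of male C57BL/6 mice aged 8 weeks, 3 mice drawn at random from each of 3 groups, in a model of partial hepatic ischemia. The N group had a laparotomy with no vessel blocked, and its labels read control mouse. The I/R group had 1 h of ischemia and 4 h of reperfusion. The IPO group had I/R with postconditioning, in which flow was stopped for 5 s and released for 5 s in each of 3 cycles ahead of the reperfusion phase. Every group shares the surgery, and whole liver was measured, so fewer cells of a type and less RNA per cell cannot be told apart. None of the hepatocyte, Kupffer cell, endothelial, erythroid or stellate cell markers that were looked up is a named probe on the array, so the tissue label could not be checked.

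The arrays were not of equal quality. The circRNA probes that stood well above background numbered from 12097 to 12661 per N array and from 12256 to 12504 per IPO array. I/R 1 had 8088, I/R 2 had 5489 and I/R 3 had 13207. Of the 515 probes, I/R 1 showed 57.7% well above background, I/R 2 showed 41.6%, I/R 3 showed 98.8% and every IPO array at least 99.4%. All N arrays, I/R 3, IPO 1 and IPO 2 were read in 1 scan, whereas I/R 1, I/R 2 and IPO 3 were each read alone. The counts of IPO against I/R and the largest increases are therefore also given without I/R 1 and I/R 2.

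The median range over the N arrays was 1.99, a 3.98-fold difference in signal, and the widest was 5.71. A range of at least 2 was reached by 254 probes and a range of at least 3 by 84. The median of the mean N level was 6.50 for these probes, against 5.17 for the 11369 other probes well above background in all N arrays with a value on each. At the edge of the threshold, ASCRP4002231 read 5.71, 6.50 and 5.00 on N 1, N 2 and N 3, and ASCRP4001745 read 2.81, 3.50 and 2.0. Just short of it, ASCRP4012320 read 5.25, 5.98 and 6.75, and ASCRP4011519 read 3.37, 2.56 and 4.06. Nothing in the values separates the probes on both sides of the threshold.

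The variation was mostly between N 3 and the other two livers. For 490 of the 515 probes (95.1%) N 3 was at one end of the range. N 3 was lowest for 319 probes (61.9%, against 34.6% of other probes), highest for 171 (33.2%, against 39.3%) and between the others for 25. These sets were defined after the values were seen, and they describe the 3 livers without a test. The 319 probes had a median range of 2.20 (4.60-fold), and 81 of them reached 3. The 171 probes had a median range of 1.79 (3.46-fold), and 3 of them reached 3. Without N 3, only 45 probes keep a difference of at least 1.5 between N 1 and N 2, and 44 of these belong to the 515.

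In the set lowest on N 3, N 1 and N 2 were close to each other. They were within 0.5 of each other for 229 of the 319 probes, with a median absolute difference of 0.32. N 1 was the higher for 131 probes and N 2 for 188. The median level of the set was 7.49 on N 1, 7.55 on N 2 and 5.19 on N 3, while the other probes had medians from 5.16 to 5.19 on these arrays. The low level of N 3 follows from the choice of this set, while N 1 and N 2 read within 0.5 of each other on most of its probes.

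The widest ranges all belonged to this set. ASCRP4005787 read 10.80 on N 1, 10.32 on N 2 and 5.09 on N 3, a 52.5-fold difference between the extremes. ASCRP4011315 read 9.91, 9.66 and 4.50. ASCRP4003022 read 11.07, 11.02 and 5.78. On all of these N 3 was more than 5 below N 1, although N 3 was still well above background. ASCRP4004601 read 9.82, 9.15 and 4.58. ASCRP4004732 read 9.84, 9.64 and 4.78. ASCRP4013120, a dimmer probe, read 6.89, 6.97 and 1.88. The 6 probes share the same order of livers except that N 2 was slightly above N 1 on ASCRP4013120.

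Wide variation was also seen at high signal. The 4 of the 515 probes with the highest mean N level were all lowest on N 3. ASCRP4002727 read 14.93, 15.15 and 12.59 on N 1, N 2 and N 3, and ASCRP4005099 read 13.91, 14.28 and 12.65. ASCRP4007660 read 13.84, 14.05 and 11.95, and ASCRP4014115 read 14.00, 13.95 and 11.71. A probe's signal depends on its sequence as well as on its circRNA, so these levels do not rank the circRNAs by abundance. Shares of the summed signal were taken from the linear processed signal before normalization, where the brightest probes weigh most. In N 1 the 319 probes held 9.10% of the summed circRNA signal, in N 2 8.45% and in N 3 1.55%. The 171 probes highest on N 3 held 0.936%, 1.38% and 3.43%. In this sum the gain of the smaller set in N 3 did not match the loss of the larger one, and all 515 probes together held 10.1%, 9.88% and 5.05%.

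In the set highest on N 3, N 1 and N 2 were less alike, with a median absolute difference of 0.72 and 69 of 171 probes within 0.5. The median level was 5.84 on N 1, 6.0 on N 2 and 7.31 on N 3. N 1 was the lowest for 95 probes and N 2 for 76. ASCRP4007565 had the widest range of the first kind, at 5.30, 6.22 and 9.38. ASCRP4006193 had the widest of the second kind, at 7.18, 6.86 and 9.60. Among the 25 probes with N 3 between the others, ASCRP4010173 read 5.20, 2.66 and 4.85, and ASCRP4011598 read 2.04, 4.12 and 2.47. Here 1 of N 1 and N 2 stood apart and N 3 was nearer to the other.

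The IPO values did not enter the rule for the probes, although the IPO arrays were normalized together with the N arrays. The 515 probes had a median range of 1.07 over the IPO arrays, against 0.57 for the other probes. With normexp background correction these medians were 0.56 and 0.22. A range of at least 1.5 was reached by 148 of 515 (28.7%) and by 410 of 11369 (3.61%). These shares were 11.1% and 0.563% with normexp, and 16.5% and 1.01% with the raw signal. Without these changes, the higher share of the 515 probes held at each level of signal. When all these probes were divided into 4 classes of equal size by mean N level, the share from the lowest to the highest class was 15.4%, 17.0%, 28.5% and 35.9% for the 515 probes, and 3.25%, 2.84%, 3.38% and 5.03% for the others. Over the I/R arrays the shares were 66.2% and 45.2%, with dim signal on I/R 1 and I/R 2. The spread over the IPO arrays depended on IPO 1. Without IPO 1 the median range was 0.42, the lowest value when any 1 IPO array was left out.

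Probes that were low together in N 3 also varied together among the IPO livers. In the set lowest on N 3, IPO 1 was above both other IPO arrays for 274 of 319 probes (85.9%), as it was for 33.5% of the other probes. The median level was 6.75 on IPO 1, 5.90 on IPO 2 and 5.90 on IPO 3. Across the 319 probes, the N 1 and N 2 mean minus N 3 had a Pearson r of 0.67 (Spearman rho 0.70) with IPO 1 minus IPO 2. With IPO 1 minus IPO 3 the r was 0.60 (rho 0.66). Over the 11369 other probes the corresponding r were 0.19 and 0.29. The threshold holds the N range of these probes under 1.5, and a narrower range lowers an r. The r of the set and of the other probes are therefore not compared like with like. The points are probes of the same arrays, normalized together, so they are not independent and the r carry no test.

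Within the set lowest on N 3, a wider difference among the N livers went with a wider difference among the IPO livers. In the set highest on N 3 the r was 0.13 with IPO 1 minus IPO 2 and -0.10 with IPO 1 minus IPO 3. For 123 probes lowest on N 3 with an N range from 1.5 to under 2, the median of IPO 1 minus IPO 2 was 0.50, and IPO 1 was the higher for 92. For 115 probes with a range from 2 to under 3 it was 0.96, and IPO 1 was the higher for 107. For 81 probes with a range of at least 3 it was 1.70, and IPO 1 was the higher for 80. The median N level also rose over these classes, from 5.41 through 7.01 to 8.48, and its part in the trend was not tested. ASCRP4005787 read 9.06, 6.94 and 7.72 on IPO 1, IPO 2 and IPO 3, and ASCRP4003022 read 9.83, 7.16 and 8.39.

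The set was chosen on its N values, with N 3 low and at least 1 other liver high, so where the IPO values lie relative to them is a description. All 3 IPO values were above N 3 and below both N 1 and N 2 for 218 of 319 probes (68.3%). N 3 was below every IPO value for 268 probes (84.0%), and N 1 and N 2 were both above every IPO value for 260 (81.5%). N 3 was at or below the highest I/R value for 181 probes. None of these placements was counted for the other probes, so their usual share is not known. The first principal component of the 515 probes, which took 70.7% of their variance, gives each array a score. N 1 and N 2 scored -34.0 each, IPO 1 -23.4, IPO 3 -8.84, IPO 2 -7.14, N 3 6.87, I/R 3 14.4, I/R 2 41.0 and I/R 1 45.2. On this component the distance of N 3 from N 1 and N 2 follows from the choice of the probes. So do the Pearson r across the 515 probes, which were 0.95 between N 1 and N 2, 0.62 between N 3 and N 1, and 0.64 between N 3 and N 2. Across the 11369 other probes, which the same threshold holds to a range under 1.5, these were 0.98, 0.97 and 0.97.

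The set highest on N 3 did not move as 1 block. Each group's mean was removed over the 6 I/R and IPO arrays, which include the dim I/R 1 and I/R 2. The median r between pairs of probes was then -0.01 in this set and 0.51 in the set lowest on N 3. It was 0.00 for the other probes, which pool all orders of the N livers. No r within an order was computed for the other probes, so the r of the sets and orders have no matched comparison. Within each order of the N livers the probes of the set highest on N 3 were more alike. Among the 95 probes with N 1 lowest, the median pairwise r was 0.56. IPO 2 was highest for 69 and IPO 3 lowest for 61, against 27.2% and 28.8% of the other probes. I/R 3 was the highest I/R array for 65, against 42.0% of the other probes. Among the 76 probes with N 2 lowest, the median pairwise r was 0.40. IPO 2 was highest for 31 and IPO 3 for 34, against 27.2% and 39.3% of the other probes, so the IPO 3 count is near the usual share. I/R 3 was the highest I/R array for 26, against 42.0% of the other probes. ASCRP4007565, from the first of these, read 8.00, 8.87 and 5.23 on the IPO arrays, and 6.59, 7.12 and 9.70 on the I/R arrays. On this probe N 3, IPO 2 and I/R 3 were the high livers of their groups. ASCRP4003026 and ASCRP4004764 had the widest ranges over the IPO arrays. ASCRP4003026 read 4.17, 5.47 and 7.48 in N and 6.06, 7.38 and 2.46 in IPO. ASCRP4004764 read 3.98, 5.60 and 6.28 in N and 4.88, 6.17 and 2.44 in IPO. Both were lowest on N 1 and on IPO 3.

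A few probes that varied among N livers were nearly constant among IPO livers. ASCRP4009555 read 7.58, 6.01 and 7.08 in N and 7.46, 7.51 and 7.47 in IPO. ASCRP4007303 read 8.76, 7.08 and 8.34 in N and 8.71, 8.65 and 8.68 in IPO. ASCRP4001328 read 6.11, 7.03 and 5.09 in N and 5.39, 5.43 and 5.32 in IPO. On ASCRP4009555 and ASCRP4007303 it was N 2, and not N 3, that stood apart.

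The comparison of IPO with I/R asks how postconditioning changed the signal. No N array enters its fit, but the values were normalized together with the N arrays, and every one of the 515 probes passed the filter for testing through the N arrays. With IPO and I/R normalized on their own the counts of higher and lower probes were the same, 228 and 13. The thresholds of the study's methods, a 2-fold difference and p below 0.05, were applied here to the unadjusted p of limma. They were met with IPO higher by 228 of the 515 probes (44.3%) and by 10.9% of all 12813 tested probes. With IPO lower they were met by 13 (2.52%) and by 7.59% of all tested probes. At an adjusted p below 0.05 over all tested probes, 69 were higher (13.4%, against 1.64%) and 1 was lower (0.194%, against 0.172%). The IPO and I/R values did not overlap, with IPO higher, for 227 probes (44.1%, against 13.7%), and with IPO lower for 18 (3.5%, against 14.1%). The median log2 fold change was 1.27 for the 515 probes and -0.01 for all tested probes. The adjusted counts were not stable, since leaving out IPO 1, IPO 2, IPO 3 or I/R 2, each alone, gave 0 adjusted calls, and leaving out I/R 1 or I/R 3 gave 19 or 260.

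The increases belonged chiefly to the set lowest on N 3. Of its 319 probes 198 were called higher in IPO (62.1%) and 7 lower, with a median log2 fold change of 1.82. In the set highest on N 3, 26 of 171 were called higher (15.2%) and 4 lower, with a median of 0.57. The difference between the sets was not tested. In the set lowest on N 3 the share called higher was 31.7%, 71.3% and 95.1% in the classes of N range from 1.5, from 2 and from 3.

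Signal level and array quality moved with these counts, and so did the 4 negative control probes above background in N, each with a higher mean in IPO than in I/R. Most negative controls not above background in N had a lower mean in IPO. In the highest of the 4 classes of N level 81.6% of the probes lowest on N 3 were called higher in IPO against 15.2% of the other probes, and in the lowest class 17.2% against 5.82%. Where the signal was well above background throughout the 9 arrays, 51 of 86 probes in this set were called higher (59.3%), against 6.85% of 5064 other probes. Without I/R 1 and I/R 2, and within the shared scan, I/R 3 was the only I/R array. With all 3 IPO arrays against I/R 3 alone, 222 of the 515 probes (43.1%, against 18.5% of all tested probes) were called higher in IPO, 159 of them in the set lowest on N 3. Another 94 (18.3%, against 18.4%) were called lower. This fit takes I/R 3 to vary as the IPO arrays do. Within the scan, the median of the IPO 1 and IPO 2 mean minus I/R 3 was 1.19 in the set lowest on N 3, -0.18 in the set highest on N 3 and -0.07 over all probes well above background in N. I/R 3 was below every IPO value for 220 of the 319 probes (69.0%, against 38.6% of all tested probes) and above every one for 43 (13.5%, against 43.4%). In the set highest on N 3, I/R 3 was below every IPO value for 72 probes (42.1%) and above every one for 76 (44.4%). Both shares are near those of all tested probes.

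Among the largest increases, ASCRP4012606 read 1.91, 4.21 and 7.0 on the I/R arrays and 11.37, 9.68 and 10.47 on the IPO arrays. It was well above background on 1 I/R array, so the fitted log2 fold change of 6.14 (limma, adjusted p = 0.0406) has no measured size. It was 3.51 without I/R 1 and I/R 2 and 3.92 with normexp. ASCRP4002727 was well above background on all arrays, at 7.15, 7.36 and 10.19 in I/R and 14.93, 13.70 and 14.10 in IPO. Its log2 fold change was 6.01 ± 0.81 (SE, n = 3 per group; limma, adjusted p = 0.0169), and 4.06 without I/R 1 and I/R 2. ASCRP4003022 read 0.23, 1.58 and 5.60 in I/R, also with 1 array well above background. Its fitted log2 fold change of 5.99 (limma, unadjusted p of 0.00174, adjusted p = 0.0624) likewise has no measured size, and it was 2.86 without I/R 1 and I/R 2 and 2.57 with normexp background correction. The I/R and IPO values of these 3 probes did not overlap.

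The bright probes followed the same direction. ASCRP4005099 read 7.43, 8.68 and 10.11 in I/R and 14.20, 13.66 and 13.66 in IPO. ASCRP4007660 read 9.40, 9.76 and 10.09 in I/R and 13.95, 13.05 and 13.24 in IPO. ASCRP4014115 read 9.05, 8.91 and 9.36 in I/R and 13.91, 12.85 and 12.85 in IPO. All 3 were well above background on every array, and their log2 fold changes were 5.10, 3.66 and 4.10 with limma adjusted p of 0.0157, 0.0121 and 0.0121. Every I/R value of these probes was below N 3, the lowest of the N livers.

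With all 6 arrays in the fit, 13 of the varying probes were called lower in IPO. ASCRP4007889 read 7.99, 8.04 and 8.11 in I/R and 4.95, 4.76 and 5.09 in IPO, a log2 fold change of -3.12 ± 0.35 (SE, n = 3 per group; limma, adjusted p = 0.0121), and -1.89 with normexp. Its N values were 3.89, 4.27 and 5.48, so the I/R livers read alike and stood above all others. ASCRP4001732 read 4.90, 6.30 and 5.74 in I/R and 4.30, 3.76 and 3.57 in IPO, with a log2 fold change of -1.77 and an unadjusted p of 0.00552 in limma. It was -0.63 with normexp and -0.98 with the raw signal, both under 2-fold. ASCRP4008629 read 7.56, 7.58 and 4.82 in I/R and 3.94, 4.25 and 4.61 in IPO, with a log2 fold change of -2.39 and an unadjusted p of 0.0123 in limma. Its log2 fold change was -1.20 with normexp, and -0.55 without I/R 1 and I/R 2, then with an unadjusted p of 0.21 in limma.

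The comparisons with N rest on the values that chose the probes, since a probe that is high on N 1 and N 2 has a high N mean by choice, and the wide N spread also enters the error. The counts are given as a description. In I/R against N, 249 of 515 probes (48.3%) were lower in I/R by the thresholds of the methods, where 11.7% of all tested probes were, and 8 (1.55%) were higher, where 7.76% were. Leaving out 1 array gave 198 to 278 lower and 7 to 21 higher. With the scan as a block, where I/R 3 is the only I/R array of the shared scan, 115 were lower and 50 higher. The shares of all tested probes with the scan block or with 1 array left out were not computed. These counts are therefore not a result about the 515 probes. At an adjusted p below 0.05, 101 differed (19.6%, against 5.95%), and leaving out 1 array gave between 3 and 237. Of the 319 probes lowest on N 3, 229 were lower in I/R by the thresholds of the methods. I/R 1 gave this set a median level of 4.04, with 145 of its probes well above background. I/R 2 gave 4.22, with 93 such probes. I/R 3 gave 5.21, with 315 such probes, close to the 5.19 of N 3. Within the shared scan the median of I/R 3 minus the N mean was -1.60 in this set.

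ASCRP4011328, ASCRP4003022 and ASCRP4011325 read lower in I/R, and the values of ASCRP4003022 are given above. ASCRP4011328 read 11.86, 11.58 and 7.10 in N and 2.37, 2.06 and 4.87 in I/R. ASCRP4011325 read 10.08, 9.96 and 6.14 in N and 1.29, 0.24 and 5.37 in I/R. Each of the 3 was well above background on 1 I/R array, so these decreases have no measured size, and I/R 3 was the nearest of the I/R arrays to N 3. Among probes higher in I/R, ASCRP4009555 read 8.23, 8.81 and 9.34 in I/R and ASCRP4001381 read 6.15, 6.21 and 7.0, the latter against 3.64, 5.10 and 5.24 in N. Of the 515 probes, 6 were well above background on no I/R array. For 4 of these the N mean exceeded the I/R bound, at least 3.14-fold for ASCRP4013120, 2.998-fold for ASCRP4002975, 9.47-fold for ASCRP4001336 and 4.61-fold for ASCRP4005355. For ASCRP4002603 and ASCRP4002704 it did not, so no decrease was measured. The bound is the lowest signal of a probe well above background, averaged over the I/R arrays, or the probe's own signal where that is higher.

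Few of these probes were called between IPO and N, and these counts also rest on the N values that chose the probes. At the thresholds of the methods 5 were higher in IPO (0.971%, against 0.437% of all tested probes) and 3 lower (0.583%, against 0.0859%). None passed an adjusted p below 0.05 in limma, where 0% of all tested probes did, and 8 had an unadjusted p below 0.05 (1.55%, against 0.866%). Without N 3, 126 probes (24.5%, against 1.87% of all tested probes) met the thresholds of the methods, a count that also follows from how the probes were chosen, and without N 2 it was 4, the lowest count when 1 array was left out. ASCRP4002097 read 2.27, 3.91 and 3.00 in N and 5.93, 8.28 and 5.40 in IPO, and ASCRP4006745 read 5.88, 6.99 and 7.65 in N and 9.10, 7.62 and 8.39 in IPO. ASCRP4006192 read 6.96, 7.31 and 8.48 in N and 6.12, 6.75 and 5.67 in IPO, so its groups did not overlap. ASCRP4001745, at the edge of the range threshold, was well above background on no IPO array and has only a bound there.

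Probes with 10 spots on each array give N ranges in which the error of single spots is averaged. The 14 circRNA control probes, had a median N range of 0.37 and a maximum of 0.59, and their median spread between spots was 0.13 (SD). Of 50 mRNA probes with 10 spots, 44 were well above background on the N arrays, with a median N range of 0.45, and 2 of these reached 1.5. Chgb, which encodes a secretory granule protein, read 5.20, 4.85 and 3.39 on N 1, N 2 and N 3. Lhfp read 3.29, 3.06 and 5.11. Ppara, the fatty acid sensor of the liver, read 9.45, 9.30 and 10.59 in N. Cpt1a, which carries fatty acids into mitochondria, read 6.65, 6.79 and 6.82 in N. Of the 44 probes, 4 had a range of at least 1. N 3 stood apart on Chgb, Lhfp and Ppara, and N 2 on Gabrg1, which encodes a GABA receptor subunit and read 2.09, 3.16 and 2.20. Over the 44 probes N 3 was highest for 20, lowest for 12 and between the others for 12. Of 15 negative control probes, 4 were well above background on the N arrays, with N ranges from 0.86 to 1.00 and a median of 0.95. N 3 was lowest on 3 of these 4, and IPO 1 was the highest IPO array on all 4. The brightest of them read 5.83, 6.53 and 5.53 in N, 3.40, 2.81 and 4.70 in I/R, and 5.64, 5.39 and 4.82 in IPO. These controls thus carried signal that was lower on N 3 than on N 2, and their IPO mean was above their I/R mean on all 4. The part of such signal in the results above was not tested. Most negative controls not well above background in N had a lower mean in IPO than in I/R, at signals that have no measured size. The 515 probes were spread over the whole array, with between 2.99% and 4.42% of the circRNA probes in each eighth of its rows.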

How the data were processed

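CircRNA signal was measured on 9 single-colour (Cy3) arrays of RNase R-treated liver RNA, 3 each for the N, I/R and IPO groups, as the sample labels give them. Per array, the authors deposited a scanner file from Agilent Feature Extraction 11.0.1.1, with a processed intensity, a raw and a background intensity and flags per spot. These are not normalized between arrays. The methods describe quantile normalization in limma and calls at 2-fold or more and p below 0.05.

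From the deposited intensities, log2 values were computed in R 4.3.3, outlier spots set to missing and all non-control spots quantile normalized with limma 3.58.1. Tests covered probes that 3 or more of the 9 arrays showed well above background, with lmFit and eBayes and Benjamini-Hochberg adjustment. IPO and I/R were fitted on their 6 arrays, since the probes were chosen for a wide N spread. The comparisons with N used all 9 arrays. The procedure was tested on simulated data. Named probes follow a fixed rule (widest N range and its leader in each order of the livers, highest level, nearest the threshold, largest changes, widest and narrowest IPO range, lowest p of IPO against N). The probes, lists and tests were chosen with earlier results of these data known. The number of arrays limits the precision. The mice within a group are the replicates. The p-values rest on the spread between their arrays, pooled over the groups fitted and, in limma, moderated over the probes. In I/R and IPO that spread also includes the scan, and in I/R the array quality. The alternatives changed the normalization, background correction, filters, range threshold, test, fit, blocks and arrays left out. The raw alternative used the median raw intensity. Values within the shared scan were added after the data were seen.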

Additional observations from a re-analysis of the deposited data

How the results depend on the processing

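The number of varying probes was 183 with normexp background correction (180 of them among the 515), 257 with the raw signal (251), 1483 at a range of at least 1, 254 at a range of at least 2 and 203 when a signal well above background was required on all 9 arrays. It was 45 to 400 when 1 N array was left out. Their median IPO range was 0.56 with normexp, against 0.22 for the other probes, and 0.42 to 0.83 when 1 IPO array was left out.

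In IPO against I/R, the 228 probes higher in IPO became 124 with normexp, and the 198 of the set lowest on N 3 became 105. The filter on all 9 arrays left 203 varying probes, 86 of them lowest on N 3. Of these, 73 and 52 were called higher. At the main setting the shares called higher were 44.3% and 62.1%, so the lower counts with this filter follow in part from the fewer probes. The 13 lower became 3 with normexp, 7 with the raw signal, 28 with array weights, 83 with the scan as a block and 94 without I/R 1 and I/R 2. The 70 adjusted calls became 118 with scaling by the 75th percentile, 109 with the raw signal, 315 with array weights, 0 with Student's t-test, 253 with the scan block and 224 without I/R 1 and I/R 2. With 1 array left out, the counts were 175 to 292, 144 to 223, 9 to 27 and 0 to 260 in the same order.

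In I/R against N, the 8 probes higher became 2 with normexp, 5 with the raw signal, 18 with array weights, 5 with Student's t-test, 50 with the scan block and 47 without I/R 1 and I/R 2. The 249 lower became 73 with the filter on all 9 arrays, 106 with Student's t-test, 115 with the scan block and 143 without I/R 1 and I/R 2, and the 229 of the set lowest on N 3 became 59, 97, 79 and 103. The 101 adjusted calls became 38 with normexp, 13 with quantile normalization of the groups compared, 47 with the filter on all 9 arrays, 6 with a fit on the groups compared, 265 with array weights, 0 with Student's t-test and 65 with the scan block. With 1 array left out, the counts were 7 to 21, 198 to 278, 177 to 264 and 3 to 237.

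In IPO against N, the 8 calls became 2 with normexp, 3 with the raw signal, 3 with the filter on all 9 arrays, 13 with a fit on the groups compared, 110 with array weights and 2 with Student's t-test, and 4 to 126 with 1 array left out. The causes of these changes were not tested, except that the stricter filter and the left-out arrays test fewer probes or samples. In each comparison the filter on all 9 arrays left 203 varying probes, 86 of them lowest on N 3. For most of these settings the share of all tested probes was not computed. A changed count alone therefore does not show a change particular to the varying probes.

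Same-numbered arrays did not pair (r of their deviations from -0.47 to 0.18, above 0.1 in 2 of 9 pairs). With the replicate number as a block, 225 probes were higher and 16 lower in IPO against I/R with 83 adjusted calls, 9 were higher and 238 lower in I/R against N with 25 adjusted calls, and 7 were called in IPO against N. Of 186 fold changes of 10 named probes in IPO against I/R under the alternatives, 178 kept both the 2-fold difference and p below 0.05. The p was lost by 4, and another 4 kept it but fell under 2-fold (ASCRP4001732 and ASCRP4001381 with normexp and the raw signal). ASCRP4008629 is among those that lost the p. It also fell under 2-fold, to -0.73 with the scan as a block and -0.55 without I/R 1 and I/R 2. None changed direction. However, the 10 probes were named for large changes, and their I/R and IPO values did not overlap. With such values, leaving out arrays cannot reverse the sign. The kept directions and calls therefore follow in part from the choice of these probes. Signals on I/R 1 and I/R 2 below background have no measured size.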
